A study of Mus musculus with 12 samples.

Results

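Cd163l1 and 5830411N06Rik are the adjoining genes for the scavenger receptors Scart1 and Scart2. They and 5 further genes of IL-17 type γδ T cells (Sox13, Etv5, Il23r, Ccr6 and Il1r1) were followed through 12 RNA-seq libraries. The libraries came from thymocytes with wild-type or altered Bcl11b. These 7 genes are among the 23234 features that the expression table lists. The Scart pair was selected on its measured difference between mutant and wild-type libraries, so its values are described without a test. The other 5 genes were named for their known place in the same cells. All 7 symbols were found in the table, and 4 of them (the Scart pair, Sox13 and Etv5) reached the mean of 1 FPKM (fragments per kilobase of transcript, scaled to the mapped fragments of the library) over the 12 libraries that was set for testing.

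γδ T cells that make IL-17 are programmed in the thymus, largely before birth, and carry the factors Sox13, Maf and Sox4. They differ from the γδ T cells that make IFN-γ in bearing receptors for IL-1β, IL-23 and the chemokine CCL20. Scart1 and Scart2 are transmembrane proteins of the scavenger receptor cysteine-rich family, and they mark IL-17 type γδ T cells in mice.

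The cells are labelled as CD24hiTCRβlo CD4+CD8+ double positive (DP) pre-selection thymocytes of C57BL/6 mice, and the question was how their transcriptome differs when Bcl11b, a zinc finger factor of T-lineage commitment, is altered. The title of the series, the source and the descriptions all give DP cells, but the extraction protocol in the same labels tells of a sort of CD4-CD8- NKT cells after removal of CD4+ and CD8+ cells, which conflicts with them. Cd4 was at 281 to 651 FPKM in the 12 libraries, and whether other sorted cells contributed was not tested. Wild-type (WT) cells came from the newborn thymus and made 5 libraries. Bcl11bm/m (HM) cells, also newborn, made 3 libraries and carry on both alleles a frameshifted Bcl11b whose truncated, hypomorphic product lacks the last zinc finger in every cell and at every stage. Bcl11bfl/fl:Cd4-Cre (cKO) cells made 4 libraries, and there Cre under Cd4 control deletes Bcl11b from about the DP stage on. The age of the cKO mice is not in the labels, so genotype and age cannot be told apart in cKO against WT or in HM against cKO. Titles and overall design gave the groups, because the descriptions attached to WT libraries name Bcl11bm/m and those attached to cKO libraries name Bcl11b+/+. Nothing in the labels ties each library to a separate animal, and p-values therefore measure only the spread between these libraries.

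Bcl11b itself was listed at 132, 286, 292, 158 and 223 FPKM in WT replicates 1 to 5, at 430, 434 and 482 FPKM in HM replicates 1 to 3, and at 127, 140, 136 and 115 FPKM in cKO replicates 1 to 4. The HM libraries lay above all others, whereas cKO values overlapped the lowest WT value, and a value for the whole gene does not show whether the deleted part was read. Depth, estimated from the steps between low FPKM values, was 2640000 to 4100000 fragments in HM, 3860000 to 6720000 in WT and 10700000 to 44590000 in cKO libraries, with cKO replicate 1 the deepest. Genotype and depth cannot be told apart where a gene is near the limit of detection. Defining DP genes were present throughout, the summed level of 11 of them being 7025 to 9156 FPKM in WT, 5506 to 6468 in HM and 6112 to 8212 in cKO libraries. Of these 11 genes 5 were lower in HM than in WT and none higher (Cd24a -1.15, Cd4 -0.99, Cd8b1 -0.96, Rag2 -0.87 and Arpp21 -0.52 on the log2 scale), against 7.39% of all features, and 2 were lower in cKO, against 9.86%. In such bulk libraries, fewer cells of a type and less RNA per cell cannot be told apart.

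The Scart genes lie side by side on the plus strand of chromosome 7 (NCBIM37, mm9), Cd163l1 (ENSMUSG00000025461) from 147404166 to 147417044 and 5830411N06Rik (ENSMUSG00000054672) from 147433200 to 147485690, with 16155 bases between them. Because these genes were high together, the sequence at 1 annotated start site of each is shown, followed by that of Sox13, which was at the WT level in HM. Each run covers 250 bases before to 50 bases after the start in RefSeq on GRCm38.p6, read 5′ to 3′ on the strand of the gene, with matches to 5 motifs in capitals. The windows are chr7:140218017-140218316 (plus strand), chr7:140247051-140247350 (plus strand, the first of 3 annotated starts) and chr1:133424163-133424462 (minus strand). In RefSeq the gene model of Cd163l1 also takes in the neighbouring gene Olfr524, upstream of the window shown, and any start there was not examined.
Cd163l1: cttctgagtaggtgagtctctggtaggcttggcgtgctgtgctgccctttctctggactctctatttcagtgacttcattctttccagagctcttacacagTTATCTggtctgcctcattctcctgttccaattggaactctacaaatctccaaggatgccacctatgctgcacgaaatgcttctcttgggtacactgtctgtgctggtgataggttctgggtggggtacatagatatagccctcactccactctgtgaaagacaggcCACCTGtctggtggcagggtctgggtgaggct
5830411N06Rik: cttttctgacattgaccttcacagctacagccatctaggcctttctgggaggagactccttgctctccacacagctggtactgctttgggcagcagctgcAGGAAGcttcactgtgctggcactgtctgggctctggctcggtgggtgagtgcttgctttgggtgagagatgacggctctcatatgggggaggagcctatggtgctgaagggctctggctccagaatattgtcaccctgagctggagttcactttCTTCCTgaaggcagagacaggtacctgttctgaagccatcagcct
Sox13: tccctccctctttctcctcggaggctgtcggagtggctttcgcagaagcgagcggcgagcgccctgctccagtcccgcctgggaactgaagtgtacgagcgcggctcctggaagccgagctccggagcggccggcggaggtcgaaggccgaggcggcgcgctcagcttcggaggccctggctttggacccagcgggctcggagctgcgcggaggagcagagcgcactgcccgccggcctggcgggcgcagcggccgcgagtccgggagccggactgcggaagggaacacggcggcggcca

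Motifs for 5 families of factors that act in thymocytes were searched on both strands, and in the windows shown no match overlapped one of another motif. The Cd163l1 window held 1 match for E proteins, spelled CACCTG, which lies 18 bases after the start. It also held 1 match for GATA factors, spelled AGATAA, at 149 bases before the start. The window of 5830411N06Rik held 2 matches for ETS factors, the family of Etv5, spelled AGGAAG. Neither window held the RUNX motif, which was spelled ACCACA, nor the motif of the TCF/LEF factors, for which the letters CTTTGA were used. Of 32851 RefSeq windows of the same length, 20.21% held the E protein letters, 11.18% the GATA letters, 35.35% the ETS letters, 16.76% the RUNX letters and 16% the TCF/LEF letters. The Sox13 window, with a GC content of 73.3% against 50.7% for Cd163l1 and 55% for 5830411N06Rik, contained no match to these letters.

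Cd163l1 transcripts were close to absent from WT cells and abundant in HM cells. It was listed at 0, 0.0497, 0, 0 and 0.0506 FPKM in WT replicates 1 to 5, at 60.8, 59.0 and 36.3 FPKM in HM replicates 1 to 3, and at 13.4, 0.42, 1.38 and 2.15 FPKM in cKO replicates 1 to 4. The WT values above 0 correspond to about 1 fragment each, and every HM and cKO library was above every WT library. 5830411N06Rik was listed at 0, 0.12, 0.093, 0.181 and 0 FPKM in WT, at 48.3, 91.2 and 75.3 FPKM in HM, and at 32.7, 2.16, 1.84 and 9.23 FPKM in cKO libraries. The order was again HM above cKO above WT, with no overlap between the groups for either gene. As a ratio the cKO libraries differed more among themselves than the HM libraries, since replicate 1 held 13.4 FPKM of Cd163l1 and the other 3 at most 2.15 FPKM, whereas in FPKM the SD was larger in HM (13.7 against 6.08).

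**Figure D1:**
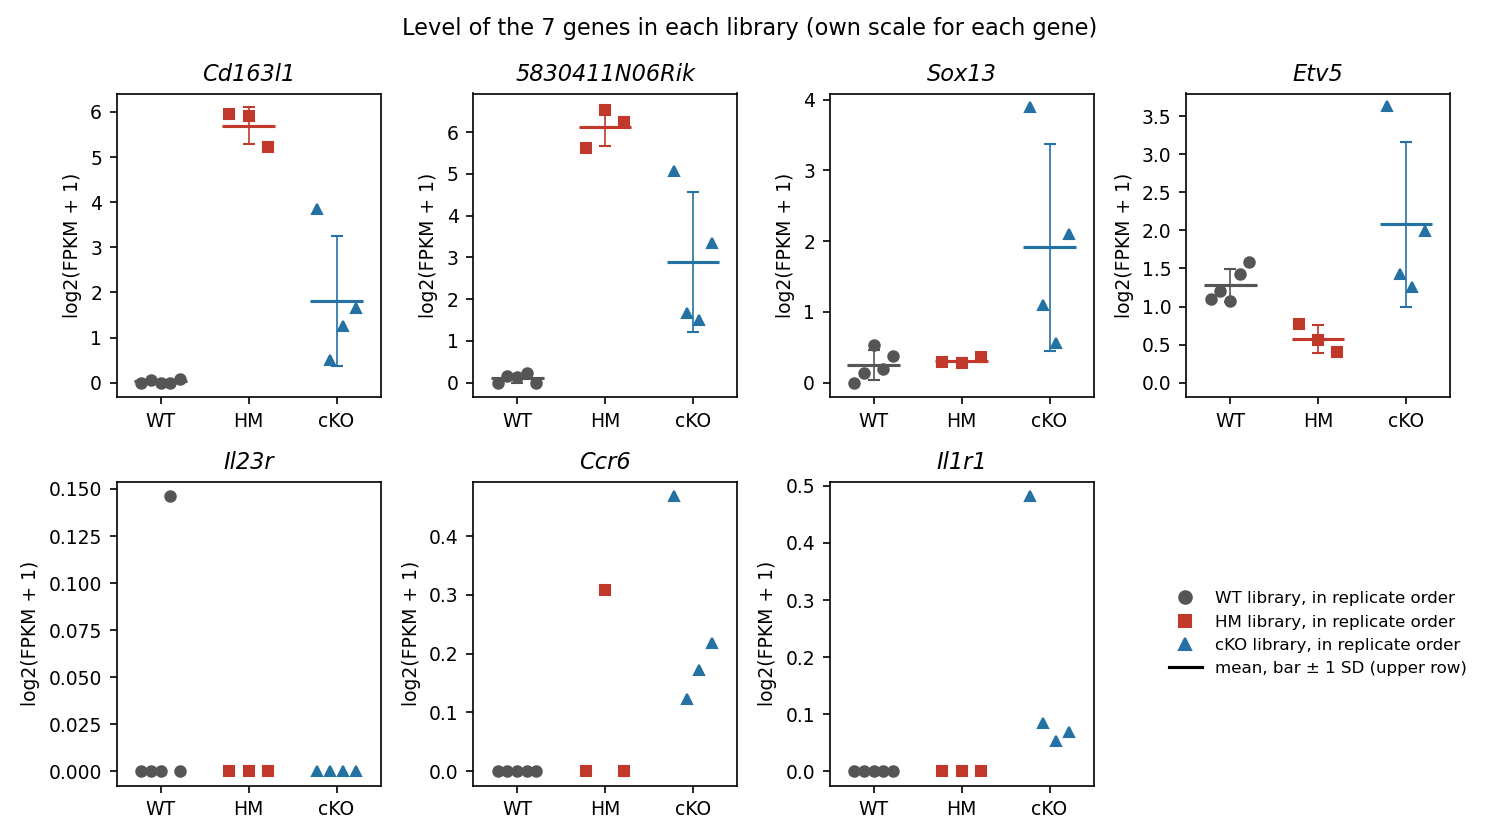
Level of each gene as log2(FPKM + 1) in the WT, HM and cKO libraries, with the mean and ± 1 SD for the 4 genes of the upper row and single libraries alone for Il23r, Ccr6 and Il1r1; each panel has its own vertical scale. Cd163l1 and 5830411N06Rik stand high in all 3 HM libraries, whereas Sox13, Etv5, Ccr6 and Il1r1 have their highest point in cKO replicate 1.

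On the log2(FPKM + 1) scale, which understates differences of low values, Cd163l1 differed by 5.66 (SE 0.18) between HM and WT, by 1.79 (SE 0.54) between cKO and WT and by 3.88 (SE 0.72) between HM and cKO. The corresponding differences of 5830411N06Rik were 6.03 (SE 0.20), 2.79 (SE 0.62) and 3.24 (SE 0.84). They rest on the pseudocount, because WT was at a few fragments, and with 0.1 in place of 1 the HM against WT differences became 8.75 and 8.72. In these 3 comparisons 9.92% of the 10780 features tested were higher in HM than in WT and 7.39% lower, 4.65% were higher in cKO than in WT and 9.86% lower, and 7.63% were higher in HM than in cKO and 2.60% lower, at an adjusted p under 0.05 with limma. Both mutants were set against the same WT libraries, so their differences from WT are not independent of each other. Without cKO replicate 1 the cKO against WT differences were 1.11 for Cd163l1 and 2.07 for 5830411N06Rik.

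The Scart genes were not in a fixed proportion. 5830411N06Rik was 0.794, 1.55 and 2.07 times Cd163l1 in HM replicates 1 to 3 and 2.44, 5.16, 1.33 and 4.29 times Cd163l1 in cKO replicates 1 to 4, both per length of transcript. The ranges overlapped between the genotypes. The transcripts of the pair share no stretch of 36 bases, the longest shared one being 23 bases.

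Most of the genes around the pair stayed below 1 FPKM in every library. Of the 5 annotated genes on each side, 8 are olfactory receptors and 2 passed the filter. Olfr524, on the minus strand at 147387642 to 147388699, was listed at 0 in all 5 WT libraries, at 7.76, 19.6 and 12.8 FPKM in HM replicates 1 to 3, and at 2.25, 0.241, 0.0755 and 0.391 FPKM in cKO replicates 1 to 4. Its HM libraries were above all others, with a log2 difference of 3.76 (SE 0.24) from WT and of 3.11 (SE 0.44) from cKO, and cKO differed from WT by 0.65. These are descriptions, since the gene passed the filter only through HM. In RefSeq on GRCm38.p6 Olfr524 lies within the Cd163l1 gene model on the other strand, though not in GENCODE vM1, and since it is unsure whether strand was kept, reads from these genes, one of which was selected on its values, cannot be told apart. Mtg1, a mitochondrial GTPase gene and the farthest of the 5 on its side, ranged from 2.79 to 7.54 FPKM in WT and from 4.41 to 5.78 FPKM in HM (log2 difference -0.07, adjusted p = 0.898). The other 8 neighbours, Sprn and 7 olfactory receptors, reached at most 0.841 FPKM in any library.

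**Figure D2:**
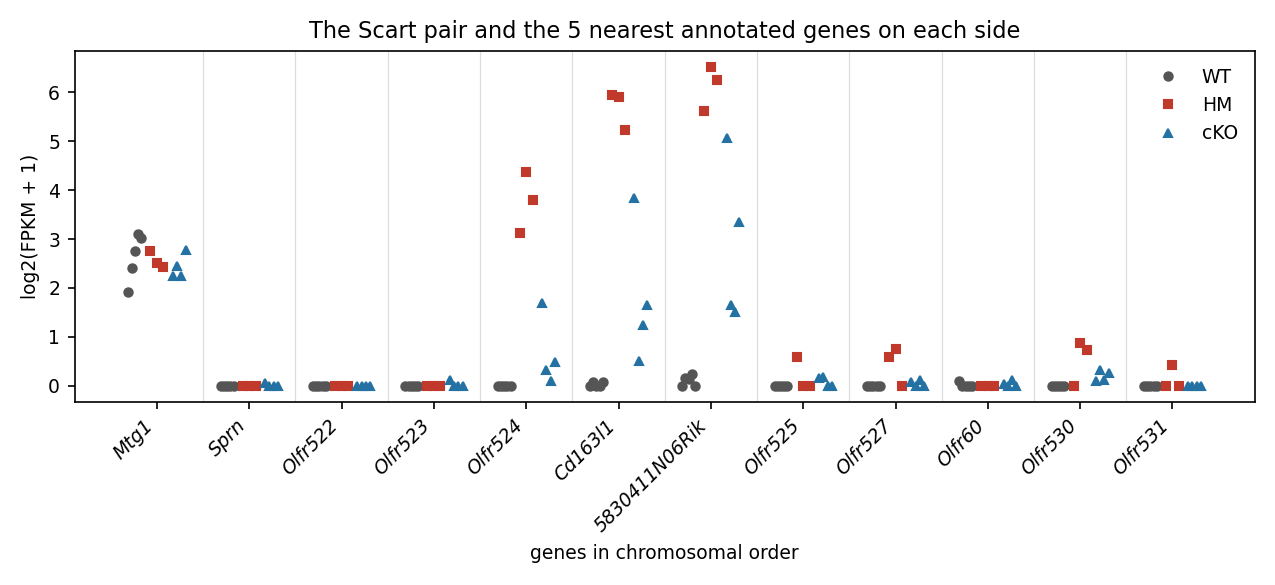
Level as log2(FPKM + 1) of the Scart pair and the 5 nearest annotated genes on each side, in chromosomal order and not to genomic scale, with 1 point per library. Olfr524, Cd163l1 and 5830411N06Rik are high in the HM libraries, Mtg1 is at a like level in all groups and the remaining genes stay below 1 on this axis.

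Sox13, the HMG-box factor that marks early γδ progenitors, did not follow the Scart pair in HM cells. It lies on chromosome 1 from 135278880 to 135320954 on the minus strand. Its level was 0, 0.0971, 0.452, 0.147 and 0.296 FPKM in WT replicates 1 to 5 and 0.22, 0.218 and 0.284 FPKM in HM replicates 1 to 3. The HM values are 2.1 to 4.1 fragments if they came from the longest transcript, and fewer on a shorter one. In cKO replicates 1 to 4 Sox13 was at 13.9, 1.15, 0.478 and 3.29 FPKM. The HM libraries fell within the WT range and all cKO libraries above it, the lowest of them (0.478 FPKM) only just.

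The HM against WT difference of Sox13 was 0.06 (SE 0.12, adjusted p = 0.781 with limma). Sox13 passed the filter on low values only through the cKO libraries, so a difference there is built into its being tested and the following p-values support nothing. The cKO against WT difference was 1.67 (SE 0.55, adjusted p = 0.0719), and the adjusted p lay on both sides of the threshold over the alternatives, from 0.0348 with a pseudocount of 0.1 to 0.156, and at 0.0405 without cKO replicate 3. The HM against cKO difference was -1.60 (SE 0.72, adjusted p = 0.19). Leaving out 1 library moved the cKO against WT difference to between 1.01 and 2.12. It moved the HM against cKO difference to between -2.06 and -0.95.

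Etv5, an ETS-family factor used by γδ progenitors and many other cells, was lower in HM than in WT. It lies on the minus strand of chromosome 16 from 22381382 to 22439792. Its level was 1.15, 1.29, 1.11, 1.68 and 1.998 FPKM in WT replicates 1 to 5, 0.707, 0.469 and 0.326 FPKM in HM replicates 1 to 3, and 11.4, 1.68, 1.40 and 2.99 FPKM in cKO replicates 1 to 4. HM libraries lay below all WT libraries, whereas cKO libraries overlapped WT except for replicates 1 and 4. The HM against WT difference was -0.70 (SE 0.15, adjusted p = 0.0142 with limma), on 5.1 to 7.1 fragments in HM and 16.4 to 44.9 in WT libraries if they came from the longest transcript. On the shortest annotated transcript, of 489 bases, the floor of 3 fragments would be 1.32 to 2.29 FPKM in WT and 2.16 to 3.35 FPKM in HM, above every HM value and 4 of the 5 WT values. The call was lost without HM replicate 2 or 3 (adjusted p up to 0.0584) and when the cKO libraries joined the fit (0.279). cKO against WT gave 0.80 (SE 0.42, adjusted p = 0.232), and 0.28 without cKO replicate 1. HM against cKO gave -1.5 (SE 0.54, adjusted p = 0.121), and -1.77 to -0.98 when 1 library was left out. Of Sox13 and Etv5, then, Etv5 alone passed in HM against WT, on the side where 7.39% of all features did.

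The receptors that let IL-17 type γδ T cells respond to IL-23, CCL20 and IL-1β were at or near 0. Il23r, the specific chain of the IL-23 receptor (chromosome 6, 67372926 to 67441849, minus strand), was listed at 0 in 11 libraries and at 0.107 FPKM, about 1 fragment, in WT replicate 4. A floor of 3 fragments corresponds to 0.191 to 0.332 FPKM of Il23r in WT, 0.313 to 0.486 in HM and 0.0288 to 0.12 in cKO libraries, counting error alone. A 0 does not exclude levels below these floors, where chance decides whether a fragment is seen, as in WT replicate 4. Ccr6, the receptor of CCL20 (chromosome 17, 8429077 to 8449992, plus strand), was listed at 0 in all 5 WT libraries, at 0, 0.238 and 0 FPKM in HM, and at 0.384, 0.0894, 0.126 and 0.163 FPKM in cKO libraries. Every cKO library thus had some Ccr6, but all 4 values were below the WT floors of 0.437 to 0.76 FPKM and the HM floors of 0.716 to 1.11 FPKM. The HM value above 0 rests on 1.5 fragments on the longest transcript, and on fewer on the shortest, which sets the floors. At such levels a listed 0 in the shallower groups does not show absence.

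Il1r1, the signalling receptor of IL-1 (chromosome 1, 40281925 to 40373043, plus strand), was listed at 0 in all WT and all HM libraries and at 0.397, 0.0601, 0.0376 and 0.0486 FPKM in cKO replicates 1 to 4. cKO replicate 1 held about 82.9 fragments and each other cKO library about 3 fragments. The value of cKO replicate 1 was above the floors of every WT library (0.0973 to 0.169 FPKM) and every HM library (0.159 to 0.248 FPKM), and the other 3 were below them. These 3 receptor genes failed the filter on low values and were not tested.

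HM libraries held Scart transcripts with Sox13 at the WT level, and cKO libraries held both, with Sox13 only just above WT in replicate 3. Whether the same cells held both cannot be told from bulk libraries. As a share of 5830411N06Rik on the per-length FPKM scale, Sox13 was 0.455, 0.239 and 0.377% in HM replicates 1 to 3 and 42.4, 53.0, 26.0 and 35.7% in cKO replicates 1 to 4. The denominator was selected on its mutant level and was higher in every HM than in every cKO library, which by itself lowers the HM share. The HM numerators rest on 2.1 to 4.1 fragments on the longest Sox13 transcript, and on fewer on a shorter one. In FPKM, Sox13 was at 0.218 to 0.284 in HM and at 0.478 to 13.9 in cKO libraries, without overlap. Blk, a Src-family kinase of B cells and of IL-17 type γδ T cells, was 0.333, 0.468 and 0.552% of 5830411N06Rik in HM and 30.3, 40.7, 28.5 and 36.9% in cKO libraries. Shares were not tested, since 5830411N06Rik was selected on its values.

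**Figure D3:**
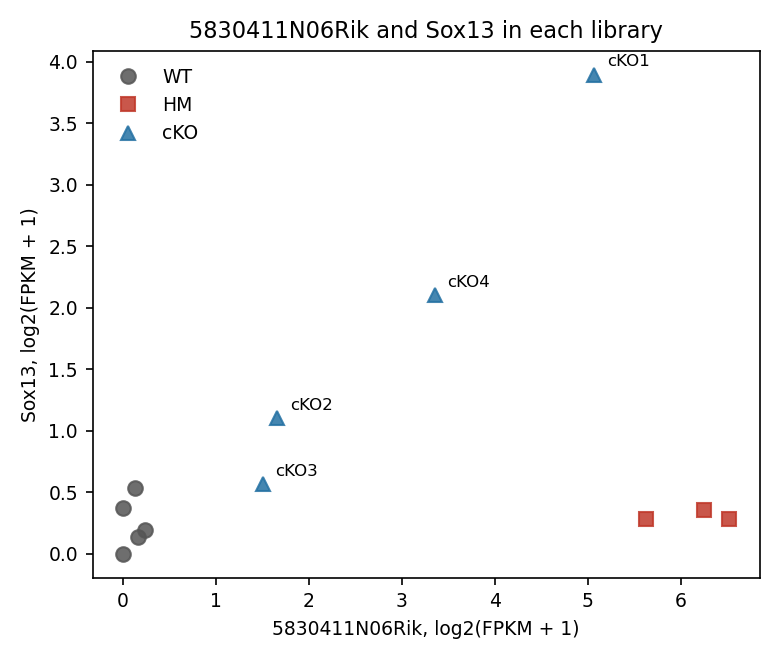
Sox13 against 5830411N06Rik in each library, both as log2(FPKM + 1). The 3 HM libraries lie at high 5830411N06Rik and WT-like Sox13, and in the 4 cKO libraries both are listed above every WT library.

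Among the cKO libraries, replicate 1 was the highest for all 6 members that were above 0. Replicate 4 came next for Cd163l1, 5830411N06Rik, Sox13, Etv5 and Ccr6. Over 10756 tested genes above 0 in cKO, replicate 1 was the highest for 13.6%, replicate 2 for 28.2%, replicate 3 for 31.5% and replicate 4 for 26.7%. Summed over the pair, Scart transcripts were 46.1, 2.58, 3.22 and 11.4 FPKM in cKO replicates 1 to 4 and 109, 150 and 112 FPKM in HM replicates 1 to 3. Replicates 1 and 4 were also above replicates 2 and 3 for Maf (12.4, 1.24, 0.551 and 3.82 FPKM), a factor needed for IL-17 type γδ T cells, for Blk (9.91, 0.88, 0.525 and 3.40 FPKM) and for Zbtb16 (0.917, 0.062, 0.12 and 0.69 FPKM), the PLZF gene of innate-like T cells.

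Markers of other cells also differed between the cKO libraries. Of 12 DN2 and DN3 genes, 4 were highest in replicate 1 and 6 in replicate 4, with 67.0, 27.0, 8.97 and 64.7 FPKM of Ptcra, the pre-TCRα gene, and 64.5, 8.26, 6.00 and 42.4 FPKM of the Notch target Dtx1. Of 7 B cell markers 6 were highest in replicate 1, such as Cd79a at 3.92, 1.78, 0.911 and 1.38 FPKM, and the summed B cell markers ranged from 11.8 to 28.3 FPKM in cKO against 13.7 to 21.6 FPKM in WT. Their part in the values of the members was not tested. None of 13 symbols for γδ T cell receptor chains matched the table, and these chains were not analysed here.

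Beyond the 7 genes, a list of 23 genes of the IL-17 type γδ programme was followed, of which 15 passed the filter. In HM against WT, 5 of the 15 were higher and 3 lower, against 9.92% and 7.39% of all features, and the median log2 difference was 0.28 beside -0.02 over all features. Il7r, the IL-7 receptor chain, was listed at 0 to 0.0885 FPKM in WT and at 25.8, 13.3 and 12.2 FPKM in HM (log2 difference 4.04, adjusted p = 1.52e-05 with limma). Gpr183, a receptor for oxysterols that guides lymphocytes, rose by 2.70, the adhesion receptor Cd44 by 2.69 and the IL-18 receptor chain Il18r1 by 2.37. Maf, at 0.281 to 0.736 FPKM in WT and at 1.97, 1.80 and 1.75 FPKM in HM, rose by 0.99 (adjusted p = 0.000971), a call that was lost when the cKO libraries joined the fit (0.209).

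Those genes are expressed by many memory-type and innate-like lymphocytes. On the other side, Il17re, a receptor chain for IL-17C, was listed at 4.22 to 7.07 FPKM in WT and at 0.937, 1.29 and 0.836 FPKM in HM (log2 difference -1.62, adjusted p = 0.000903 with limma). Tmem176b fell by 1.75 and its neighbour Tmem176a by 1.44, the latter losing its call without HM replicate 2 or 3 (adjusted p up to 0.0746). Sox4 gave 0.03 (adjusted p = 0.931) and Blk 0.28 (adjusted p = 0.0725, and 0.0231 without HM replicate 1). The effector cytokine genes Il17a and Il22 were listed at 0 in all 12 libraries, and Il17f reached 0.251 FPKM at most.

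**Figure D4:**
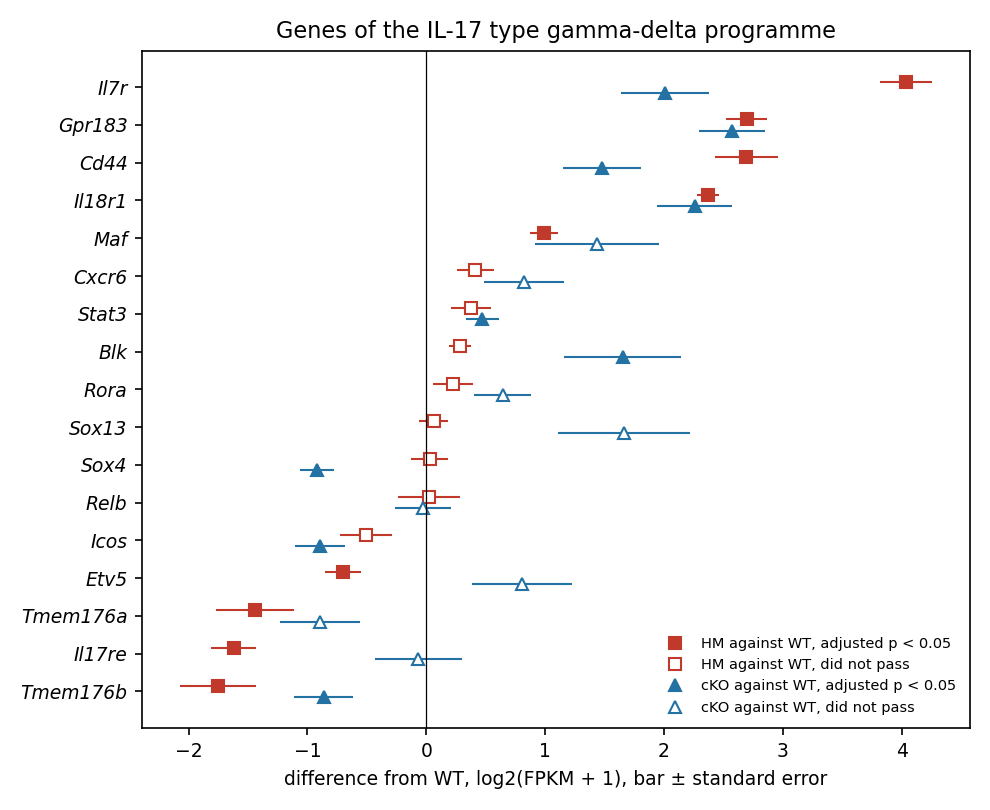
Difference from WT on the log2(FPKM + 1) scale, with its standard error, for Sox13, Etv5 and the 15 tested genes of the programme list in HM (squares) and cKO (triangles), filled where the adjusted p was under 0.05. Il7r, Gpr183, Cd44 and Il18r1 are higher in both mutants. The points of Sox13 (0.06 in HM, 1.67 in cKO) and Etv5 (-0.70 and 0.80) lie apart between the mutants. The filled cKO point of Blk belongs to a gene that reached the filter only through cKO.

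In cKO against WT, 6 of the 15 list genes were higher and 3 lower, against 4.65% and 9.86% of all features, with a median of 0.64 beside -0.09. Blk, Maf, Rora and Cxcr6 reached the filter only through the cKO libraries, their mean over the other groups being under 1 FPKM, so their being higher there is built in. Without these 4, 5 of 11 were higher and 3 lower, and the median was -0.02. Gpr183 rose by 2.57, Il18r1 by 2.26, Il7r by 2.01 and Cd44 by 1.48, and Stat3, the transducer of IL-23 signals, by 0.47. Sox4 fell by 0.92, Icos, a costimulatory receptor, by 0.89 and Tmem176b by 0.86. Without cKO replicate 1 the counts were 4 higher and 1 lower. After median-ratio scaling, under which the share of all called features that were higher in cKO went from 32.03 to 46.33%, they were again 6 and 3. The calls of Stat3, Icos and Tmem176b were lost without any 1 of 8, 4 and 7 of the 9 libraries respectively, cKO replicates 1 and 4 being among these for each gene, and adjusted p values with limma reached 0.132, 0.0658 and 0.133. Blk and Maf are described without a test, with log2 differences of 1.65 and 1.44 (SE 0.52). Leaving out 1 library gave 1.09 to 2.04 for Blk and 0.84 to 1.88 for Maf. In HM against cKO, 1 of the 15 was higher in HM, which is near the 7.63% of all features that were. Without Blk, Maf, Rora and Cxcr6 the count was 1 of 11. The gene that passed was Sox4, at 131 to 142 FPKM in HM and 64.8 to 75.9 FPKM in cKO (log2 difference 0.95, adjusted p = 0.00241 with limma).

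The programme did not vary as a block over the cKO libraries. Il7r was at 4.08, 1.45, 8.96 and 1.55 FPKM, Il18r1 at 3.92, 2.31, 11.5 and 5.05 FPKM and Gpr183 at 4.82, 4.35, 12.2 and 8.81 FPKM in cKO replicates 1 to 4. Each of these genes was highest in replicate 3, where Sox13 was lowest. Of the 21 list genes above 0 in cKO, 11 were highest in replicate 3 and 6 in replicate 1. In the same replicate 3 most markers of post-selection thymocytes were highest as well (7 of 8 genes), and the part of such cells in these levels was not tested.

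**Figure D5:**
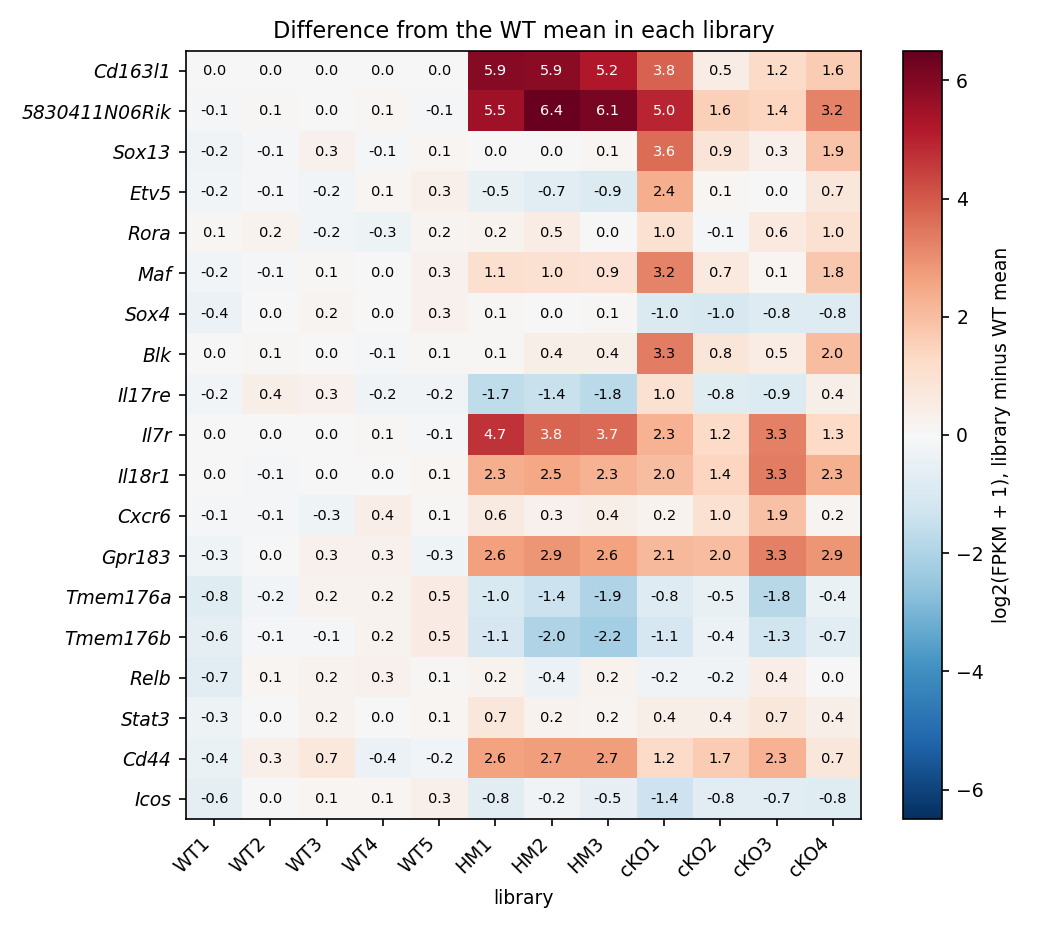
Difference of each library from the WT mean, as log2(FPKM + 1), for the 4 members that passed the filter and the 15 tested genes of the programme list. In HM the Scart pair, Il7r, Il18r1, Gpr183 and Cd44 are high while Sox13 and Blk stay near 0, and in cKO replicate 1 the pair, Sox13, Etv5, Maf and Blk are high together.

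Several genes that work with the cytokine receptors were higher in the mutants. Of 17 partners and transducers 11 were tested, and 6 were higher in HM than in WT, against 9.92% of all features (median 0.60 beside -0.02). Il12rb1, which pairs with Il23r, was at 8.56, 16.3, 19.9, 11.4 and 12.3 FPKM in WT and at 52.0, 32.5 and 30.8 FPKM in HM (log2 difference 1.44, adjusted p = 0.00946 with limma). Stat4 rose by 1.38, Irak2 by 1.05, Irak4 by 0.87 and Irak1 by 0.67, the last 3 being kinases of the IL-1 receptor pathway, and Tyk2, the kinase bound to Il12rb1, by 0.60. The call of Tyk2 was lost without any 1 of 5 of the 8 libraries (HM replicates 1 to 3 and WT replicates 2 and 4), with an adjusted p of up to 0.109. In cKO against WT 5 were higher, against 4.65% of all features, among them Il12rb1 (32.6, 23.0, 34.8 and 33.1 FPKM, log2 difference 1.15, adjusted p = 0.0104), and without cKO replicate 1 the count was 2. Il1rap, the partner of Il1r1, was at 2.86 to 4.02 FPKM in WT and 3.83 to 4.01 FPKM in HM (log2 difference 0.11, adjusted p = 0.617). Il12rb1 and Tyk2 also serve the IL-12 receptor, so their level does not single out IL-23.

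Relatives of the receptors were also followed. Of 15 paralogues of the 7 genes, 8 were tested, and 4 were higher and 1 lower in each mutant than in WT, against 9.92% and 7.39% of all features in HM and 4.65% and 9.86% in cKO. Il18r1 and Il12rb1, already counted in the lists above, are among the 4 in each mutant. Il12rb2, the chain that makes the IL-12 receptor with Il12rb1, was at 1.24 to 2.94 FPKM in WT, at 42.1, 20.3 and 15.9 FPKM in HM and at 32.4, 10.4, 40.6 and 29.6 FPKM in cKO. It differed from WT by 3.04 in HM (adjusted p = 0.000617 with limma) and by 3.12 in cKO (adjusted p = 0.00186). Il18rap, a chain of the IL-18 receptor, rose by 1.25 in HM, a call that was lost when the cKO libraries joined the fit (adjusted p = 0.0715). It reached the filter only through the cKO libraries, so its difference of 2.08 there is a description, and without it 3 of 7 paralogues were higher in cKO. Ccr9, the chemokine receptor of DP thymocytes, was at 251 to 303 FPKM in WT, at 65.4, 93.9 and 91.8 FPKM in HM and at 129, 238, 43.8 and 83.8 FPKM in cKO, and it fell by 1.75 in HM and by 1.43 in cKO. The cKO call of Ccr9 (adjusted p = 0.0358) was lost without any 1 of 7 libraries (WT replicates 2 to 5 and cKO replicates 1, 3 and 4), with an adjusted p of up to 0.0992.

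The other tested paralogues that did not pass, the receptors Ccr4, Ccr7 and Il1rl2, had adjusted p values between 0.181 and 0.618 in HM and in cKO against WT. Sox5, an SoxD factor like Sox13 that was singled out after its values were seen, was below the filter. It was at 0 to 0.0364 FPKM in WT, at 1.08, 0.645 and 0.662 FPKM in HM and at 0.0132 to 0.123 FPKM in cKO. Its HM libraries thus lay above all others, in the libraries where Sox13 was at the WT level.

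Among 14 listed genes of the scavenger receptor cysteine-rich family, 4 were tested. Cd5 and Cd6, its members on αβ T cells, went the other way from the Scart pair, on the side where 7.39% of all features passed in HM. Cd5 was at 66.3, 74.4, 86.7, 148 and 140 FPKM in WT and at 38.8, 40.2 and 32.8 FPKM in HM (log2 difference -1.37, adjusted p = 0.0122 with limma), and Cd6 fell by 0.97 (adjusted p = 0.0104). Lgals3bp, a secreted member, was at 12.4 to 29.5 FPKM in WT and at 57.5, 35.8 and 31.5 FPKM in HM, above WT in every library but short of the threshold (log2 difference 0.84, adjusted p = 0.1), and with median-ratio scaling the list had 1 gene higher and 2 lower. Loxl2 gave 0.17 (adjusted p = 0.646). Of 12 genes of IFN-γ type γδ and NK-like cells, 3 were tested and 2 were higher in each mutant, against 9.92% of all features in HM and 4.65% in cKO. The other tested gene, Cd27, went the other way and did not pass. It differed from WT by -0.19 in HM and by -0.43 in cKO (adjusted p = 0.314 and 0.102 with limma). Cd160 was at 0.111 to 0.433 FPKM in WT, at 24.8, 19.2 and 12.8 FPKM in HM and at 20.7, 6.38, 35.9 and 31.4 FPKM in cKO (log2 differences from WT 3.93 and 4.05, adjusted p = 1.21e-05 and 0.0013). Ly6c2 gave 2.92 and 2.03, the cKO call being lost without any 1 of 8 of the 9 libraries, all but cKO replicate 2 (adjusted p up to 0.116). Ifng was listed at 0 in all WT and HM libraries.

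The HM libraries also carried more of several marker lists of other cells, where the share of all features higher in HM than in WT was 9.92% and lower 7.39%. Of 8 tested genes of ILC3 and LTi cells 4 were higher than in WT, and the summed level of the 12 listed was 115 to 202 FPKM in WT and 432 to 665 FPKM in HM, with Il22 at 0 throughout. The largest parts of the HM sum were Cxcr5 (0.101 to 0.804 FPKM in WT, 206 to 273 in HM) and Ltb (99.4 to 184 FPKM in WT, 149 to 217 in HM), which did not pass. Il2ra, at 2.68 to 5.25 FPKM in WT and 33.5 to 117 FPKM in HM, is in this list and in the next. Of 7 tested DN2 and DN3 genes 5 were higher and 1, Ptcra, lower, the sum of 12 being 43.7 to 57.0 FPKM in WT and 76.2 to 233 FPKM in HM. Of 8 genes of post-selection thymocytes 6 were higher (93.5 to 174 FPKM in WT, 381 to 550 in HM). All 4 tested NK genes were higher (sum of 9 genes 18.9 to 72.9 FPKM in WT, 229 to 437 in HM), with Ncr1 at 0 in 2 of the 3 HM libraries and Gzmb at 0 in all. Most of that sum was Gzma (16.4 to 67.1 FPKM in WT, 202 to 409 in HM). The tested gene Klrb1c overlapped between the groups (adjusted p = 0.0494 with limma). Myeloid markers, 3 of 7 higher, summed to 8.56 to 19.8 FPKM in WT and 31.3 to 124 FPKM in HM. Kit (in the ILC3 and the DN2 and DN3 list), S1pr1 (post-selection) and Itgam, Mpeg1 and Csf3r (myeloid) reached the filter only through 1 of the groups compared. Without them 3 of 7 ILC3, 4 of 6 DN2 and DN3, 5 of 7 post-selection and 2 of 4 myeloid genes were higher in HM.

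The same lists moved in cKO against WT, beside 4.65% of all features higher and 9.86% lower. Higher were 3 of 8 ILC3 and LTi genes (2 of 7 without Tnfrsf25, which passed only through cKO), 3 of 7 DN2 and DN3 genes, 5 of 8 post-selection genes (4 of 7 without S1pr1, and 1 lower) and 1 of 4 NK genes (1 lower). Of 7 myeloid genes 3 were lower and none higher, which is 3 of 6 without Itgam. Without cKO replicate 1, 3 ILC3 and LTi, 1 DN2 and DN3 and 4 post-selection genes were higher and 2 myeloid genes lower, and the calls of both NK genes and of the lower post-selection gene were lost. The part of all these cells in the levels of the members was not tested.

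The genes whose profile over the 12 libraries was nearest to that of Cd163l1, by the root mean square difference of centred log2(FPKM + 1) values, were Gpr25 (0.761), Olfr524 (0.930), Evi2a (0.944), Gas7 (1.03) and Il7r (1.09). The Scart genes were nearer to each other (0.604) than to any of these. Both were selected on their difference between mutant and WT libraries, so this likeness is partly built in. For 5830411N06Rik the list was Gpr25 (1.19), Camk2b (1.19), Itga9 (1.20), Olfr524 (1.20) and Evi2a (1.24). Gpr25, an orphan receptor gene, was at 0.409 to 1.93 FPKM in WT, 61.5 to 111 FPKM in HM and 1.51 to 4.02 FPKM in cKO. Like both Scart genes it was highest of the cKO libraries in replicate 1. There it was at 4.02 FPKM, beside 13.4 FPKM of Cd163l1 and 32.7 FPKM of 5830411N06Rik. All members were left out of both rankings, so these do not show how near Sox13 or Etv5 lay to the pair.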

How the data were processed

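RNA-seq libraries of sorted pre-selection DP thymocytes were used. The authors mapped reads with TopHat2 and deposited FPKM values per gene and library from Cufflinks (2.1.1 per the submitters' notes, which name mm9) on the iGenome annotation, with no scaling between libraries stated. The library kit differs between the labels' protocol and the study's methods, so strandedness is uncertain.
Tests were made on log2(FPKM + 1) for the 10780 features whose average over all 12 libraries reached 1 FPKM. Each comparison was fitted with limma 3.58.1 (R 4.3.3; lmFit, then eBayes with trend) to its own 2 groups. Tests were two-sided, p-values were adjusted by Benjamini-Hochberg over all of those features, and the threshold was 0.05. The fit was tested on simulated data. Python 3.11.15, pandas 2.3.3, numpy 2.4.6 and matplotlib 3.10.9 served for other steps.
Depth was estimated from 6369 genes with a single transcript, in which 59.9 to 65.2% of low values lay within 0.1 of a whole number of fragments, against 20% if spread evenly. Floors are 3 fragments on the shortest coding transcript, counting error only. The fragments given for a member in a library are on its longest coding transcript.
The members and gene lists were chosen with earlier results of these data known. Named were the 7 members, up to 5 genes per list and comparison with an adjusted p under 0.05 by size, tested paralogues, the 5 genes nearest the Scart pair on each side, the 5 nearest profiles to each Scart gene (members aside), and Bcl11b. Others were named after their values were seen. Some results for a single gene are not reported here, and it was left out of the gene lists. Positions are from GENCODE vM1 (NCBIM37), promoters from RefSeq (GRCm38.p6). Alternatives were a pseudocount of 0.1, no filter, an average of 5 FPKM as the filter, scaling of libraries by median ratios, fitting the 3 groups together, replicate number as a block, and leaving out each library.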

Additional observations from a re-analysis of the deposited data

Results flagged for a closer look

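In 6 of 53 groups of 4 or 5 libraries, over 30 genes, the highest or lowest library stood apart from the others by Dixon's criterion. The criterion is set to be met by chance in about 1 of 20 groups. The count is a description and is not compared with that rate, since Cd163l1 was selected on its values. For Il23r, 1 fragment beside values of 0 meets the criterion by construction. In cKO replicate 1 Cd163l1 was at 13.4 FPKM beside 0.42 to 2.15 FPKM in the other cKO libraries, Etv5 at 11.4 FPKM beside 1.40 to 2.99 FPKM, and Il1r1 at 0.397 FPKM beside 0.0376 to 0.0601 FPKM. That library was also the deepest, and the part of depth in these values was not tested. Il23r was at 0.107 FPKM in WT replicate 4 and listed at 0 in the other WT libraries, a difference of about 1 fragment. Relb, an NF-κB subunit, was at 0.647 FPKM in WT replicate 1 beside 1.89 to 2.32 FPKM in the other WT libraries. Stat3 was at 70.7 FPKM in cKO replicate 3 beside 54.2 to 56.1 FPKM in the other cKO libraries.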

How the results depend on the processing

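The number of features called was 1866 in HM against WT, 1564 in cKO against WT and 1102 in HM against cKO. With an average of 5 FPKM as the filter, which tests fewer features, it was 1189 in HM against WT and 656 in HM against cKO. Leaving out 1 library gave 1021 to 2349 for HM against WT, 700 to 2678 for cKO against WT and 313 to 1121 for HM against cKO. With replicate numbers as a block the numbers of features called were 283, 456 and 30, but libraries with the same number did not deviate together (correlations of deviations -0.211 to 0.152), so the numbers do not pair the libraries. Median-ratio scaling moved the median difference of all features from -0.09 to 0.0045 in cKO against WT and from 0.09 to -0.01 in HM against cKO, and the share of called features that were higher from 32.03 to 46.33% and from 74.59 to 51.55%. Among the genes run under the alternatives, directions turned only for differences that had not passed. Mtg1 in HM against WT became 0.21 with the replicate block, and ranged from -0.249 to 0.0443 when 1 library was left out (0.0443 without WT replicate 4, 0.025 without WT replicate 5). Sox13 in HM against WT ranged from -0.0002 (without WT replicate 1) to 0.13, and Maf in HM against cKO from -0.89 to 0.15 (without cKO replicate 1). The cause was not tested. The alternatives were run gene by gene on only part of the named genes, and on some that are not named. Among the named genes not run were Cd24a, Cd4, Cd8b1, Rag2, Arpp21, Gpr25, Evi2a, Gas7, Camk2b and Itga9. Counted were the genes run with an adjusted p under 0.05, except those that reached the filter only through 1 of the groups compared. Left out for that reason were Kit and Olfr524 in both HM comparisons, and Blk and Il18rap in cKO against WT. Whichever library was left out, 24 of the remaining 28 kept their call in HM against WT. The same held for 10 of 19 in cKO against WT and 3 of 4 in HM against cKO. Under the other alternatives, the block aside, 24 of 28, 14 of 19 and 3 of 4 of these genes kept their call, and under the block 12, 9 and 1 did. Depth limits Il23r, Ccr6 and Il1r1, mostly at 3 fragments or fewer, Sox13 in WT and HM (at most 6.2 and 4.1 fragments) and Etv5 in HM. These fragment numbers are on the longest transcript.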
